A study of Mus musculus with 4 samples.

Results

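Natural killer (NK) cells of mouse glioma were taken from single-cell RNA sequencing of sorted brain immune cells, and 618 of the 7172 tumor barcodes that passed quality filters met the definition used. A barcode was counted as NK-gated when it held at least 3 unique molecular identifiers (UMIs, each standing for 1 captured transcript) summed over Ncr1, Klrb1c, Klre1 and Klra8. It also had to hold at most 1 UMI of Cd3d, Cd3e and Cd3g, no UMI of Cd8a, Cd8b1 or Cd4, and at most 1 UMI of C1qa, C1qb and C1qc. Barcodes with fewer than 200 genes or more than 10% of their UMIs from mitochondrial genes were dropped first. The 4 libraries held 8694 barcodes in all, of which 8572 were kept. The cells were thus chosen by their own UMIs of the gate genes, whose levels are a description and not a result.

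The glioma was the 005 line, grown after injection into the hippocampus of C57BL/6J mice aged 8 to 12 weeks, with antibody treatment starting on day 7 and collection on day 35. One library came from mice given anti-CTLA-4 (clone 9H10) plus the CD4-depleting antibody GK1.5, here called the depletion library. Another came from mice given anti-CTLA-4 alone, and another from mice given isotype control IgG2a, here called the IgG library. The last came from healthy brain without tumor. Each tumor library was a single pool of 3 tumors, so no library has a replicate, and every ratio between libraries below carries counting error only. Microglia, CD11b+ myeloid cells, CD3+ T cells and the remaining CD45hi cells were sorted and then mixed at equal ratios. The share of a cell type among barcodes is therefore set by that mixing, and NK cells that carry CD11b on their surface could have entered the myeloid sort.

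NK cells are lymphocytes that kill stressed or transformed cells without rearranged antigen receptors. They read target cells through paired activating and inhibitory receptors, many of them C-type lectins, and kill with perforin and granzymes. Type 1 innate lymphoid cells (ILC1) are close relatives that stay in tissue. In mouse, conventional NK cells depend on the transcription factor Eomes, whereas ILC1 carry the integrin CD49a, encoded by Itga1, and often Cxcr6 and the death ligand TRAIL, encoded by Tnfsf10. In tumors, NK cells under TGF-beta can take on CD49a and other ILC1 features, so that Itga1 and Eomes together mark intermediate cells.

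The gate held 194 cells in the depletion library, 292 in the anti-CTLA-4 library, 132 in the IgG library and 1 in healthy brain. That is 5.01% of kept barcodes (exact binomial 95% interval 4.34 to 5.74%) in the depletion library, 15.8% (14.1 to 17.5%) in the anti-CTLA-4 library, 9.14% (7.70 to 10.8%) in the IgG library and 0.0714% (0.00181 to 0.397%) in healthy brain. B cells lack CD11b and CD3 and so belong to the remaining sort, as do NK cells without CD11b, and set against B cells the tumor libraries lay closer together. NK cells with CD11b could have been sorted apart from B cells, so the sort can also move this ratio. NK-gated cells made up 57.7% (52.3 to 63.1%) of NK-gated and B cells in the depletion library, 61.1% (56.5 to 65.5%) in the anti-CTLA-4 library and 64.4% (57.4 to 70.9%) in the IgG library. In healthy brain 1 NK-gated cell stood beside 126 B cells. Because of that single cell, the comparison of tumor with healthy brain was not made.

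Markers that the gate did not use were present in the gated cells. Gzma, which encodes the killing protease granzyme A, had a UMI in 93.8% of gated cells in the depletion library, 94.9% in the anti-CTLA-4 library and 93.9% in the IgG library. Among B cells, which do not make it, 2.82%, 12.9% and 9.59% held a Gzma UMI in the same order of libraries, at median depths of 2936.5, 5137.5 and 5710 UMIs. At 1000 UMIs per cell, Gzma was in 89.6%, 92.5% and 89.4% of gated cells and in 1.45%, 1.08% and 0% of B cells. Prf1, which encodes perforin, was found in 36.1% of gated cells in the depletion library, 53.1% in the anti-CTLA-4 library and 58.3% in the IgG library, and in no B cell of the tumor libraries. Of the gate genes, Klre1 was in 89.7%, 97.3% and 97.0% of gated cells and Ncr1, the receptor NKp46, in 68.0%, 76.0% and 81.8%. Gated cells with exactly 3 gate UMIs numbered 18, 8 and 2, and 88.9%, 100% and 100% of them held Gzma. Cells with 2 gate UMIs that passed every other criterion, just outside the gate, numbered 24, 7 and 5, and 83.3%, 85.7% and 60.0% of those held Gzma.

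Depth differed between libraries. Gated cells had a median of 3424.5 UMIs and 1346 genes in the depletion library, 4928.5 UMIs and 1701 genes in the anti-CTLA-4 library, and 4839.5 UMIs and 1718 genes in the IgG library. Summed over gated cells, the 3 libraries held 720043, 1527957 and 721555 UMIs. Levels are given below as CPM (a gene's UMIs scaled to 1000000 UMIs of the class), and shares of cells with a UMI are also given after each cell was thinned to 1000 UMIs, because a deeper cell shows more genes. The libraries shared 9 barcodes, none of them NK-gated.

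The great majority of cells with either lineage marker carried Eomes. Over the 3 tumor libraries, 347 gated cells (56.1%) held an Eomes UMI and no Itga1 UMI, 14 (2.27%) held Itga1 only, 18 (2.91%) held both and 239 (38.7%) held neither. Eomes-only cells made up 47.4% (exact binomial 95% interval 40.2 to 54.7%) of gated cells in the depletion library, 58.6% (52.7 to 64.3%) in the anti-CTLA-4 library and 63.6% (54.8 to 71.8%) in the IgG library. Eomes-only cells had a median of 3956, 5108 and 4624.5 UMIs in the depletion, anti-CTLA-4 and IgG libraries, and cells with neither gene 3018, 4599 and 4812 UMIs. Cells with neither gene were thus shallower in the depletion and anti-CTLA-4 libraries and not in the IgG library. They made up 50% of the depletion library, 35.3% of the anti-CTLA-4 library and 29.5% of the IgG library. At 1000 UMIs per cell the share with Eomes was 21.2% in the depletion library, 22.6% in the anti-CTLA-4 library and 21.97% in the IgG library. The order of the libraries in the unthinned shares was thus not present at equal depth. The Eomes level was 229.2, 261.1 and 281.3 CPM in the same order, and its ratio of depletion to IgG was 0.814 with an interval (0.659 to 1.005) that reached 1. B cells held no Eomes UMI in any tumor library.

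Itga1 was rare in every library. A UMI was found in 5 cells of the depletion library (2.58%), in 18 cells of the anti-CTLA-4 library (6.16%) and in 9 cells of the IgG library (6.82%), for levels of 6.94, 15.1 and 16.6 CPM. No B cell of the depletion library and 2 B cells of each other tumor library (1.07% in the anti-CTLA-4 library, 2.74% in the IgG library) held an Itga1 UMI. Of the cells with Itga1, 1 of 5 in the depletion library, 10 of 18 in the anti-CTLA-4 library and 7 of 9 in the IgG library also held Eomes. After thinning, 0.518%, 1.71% and 0.758% of gated cells held Itga1, so differences between libraries were not detectable at this depth. Each library had fewer than 10 Itga1-only cells (4, 8 and 2), the minimum set for a test across libraries, so no test of Eomes-only against Itga1-only cells was run.

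**Figure D1:**
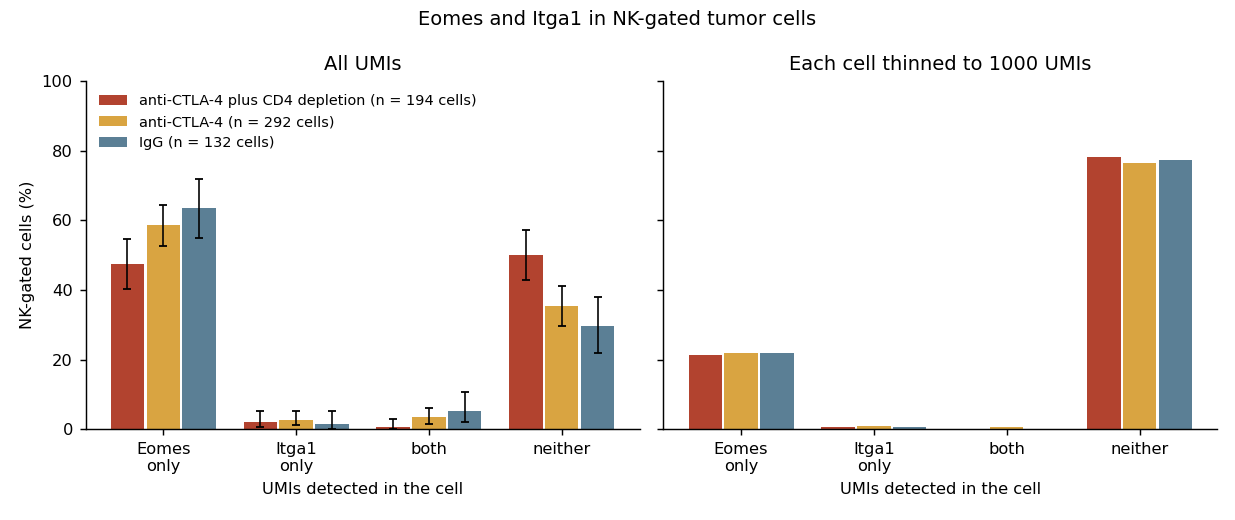
Percent of NK-gated cells (y axis) in which a UMI of Eomes only, Itga1 only, both or neither was found (x axis), in the depletion, anti-CTLA-4 and IgG libraries from left to right in each group. Bars at left use all UMIs with exact binomial 95% intervals, and bars at right use cells thinned to 1000 UMIs, where Eomes-only cells lie between 21.2% and 21.97% in every library.

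The cells with Itga1 differed from Eomes-only cells in more than the 2 genes that split them, and the values are given as a description of 347 Eomes-only cells and 32 cells with Itga1 (with or without Eomes), summed over the 3 libraries. Cxcr6, a chemokine receptor of tissue-resident lymphocytes, stood at 10.9 CPM in Eomes-only cells and 183.4 CPM in cells with Itga1. By library, Eomes-only cells had 2.69, 13.1 and 13.0 CPM of Cxcr6 in the depletion, anti-CTLA-4 and IgG libraries, and cells with Itga1 had 0, 168.1 and 266.7 CPM. The 5 Itga1 cells of the depletion library thus held none, and over all libraries the Cxcr6 UMIs came from 7 of the 32 cells. Tnfsf10 (TRAIL) was at 16.6 CPM in Eomes-only cells, with a UMI in 7.49% of them, and at 149.6 CPM in cells with Itga1, with a UMI in 40.6%. The TRAIL difference had the same direction in each library, with 16.1, 15.3 and 19.5 CPM in Eomes-only cells and 107.8, 184.1 and 94.1 CPM in cells with Itga1. The depletion value in cells with Itga1 rested on fewer than 3 UMIs, the floor used here, so the direction in that library is not secure. Inpp4b, which encodes a phosphoinositide phosphatase, was at 6.29 CPM in Eomes-only cells and 67.6 CPM in cells with Itga1.

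Secreted factors and killing genes also differed along that split. Xcl1, a chemokine that draws cross-presenting dendritic cells, was at 617.7 CPM in Eomes-only cells and 2346 CPM in cells with Itga1. In the depletion library the order was the other way, with 491.5 CPM in Eomes-only cells and 161.7 CPM in the 5 cells with Itga1. That last value is only 3 UMIs, so this order is uncertain. Ltb, which encodes the lymphotoxin beta subunit, was at 191 and 632.2 CPM in Eomes-only cells and cells with Itga1, and higher in cells with Itga1 in all 3 libraries. Cd160, a receptor for HVEM and class I molecules, was in 11.2% of Eomes-only cells and 46.9% of cells with Itga1. These shares, like those of Tnfsf10 above, were not thinned, and the cells with Itga1 were deeper. Over the 3 libraries, Eomes-only cells had a median of 4610 UMIs, Itga1-only cells 5415.5 and cells with both 6383. The granzyme genes went in both directions. Gzma was at 13010 CPM in Eomes-only cells and 5748 CPM in cells with Itga1, and Gzmb at 1555 and 458.5 CPM, each lower in cells with Itga1 in all 3 libraries. Gzmc had the opposite order, with 9.15 CPM in Eomes-only cells and 333 CPM in cells with Itga1, although its UMIs came from 7 of the 32 cells with Itga1 and it had none in either class of the depletion library.

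Most genes of conventional NK cells stood higher in Eomes-only cells than in cells with Itga1, which is a count and not a test. Of 18 listed genes other than Eomes with at least 10 UMIs over both classes, 16 were higher in Eomes-only cells over the summed libraries and 10 in each of the 3 libraries. The median ratio was 1.97, against 1.06 over all 251 such genes of the lists, of which 134 were higher in Eomes-only cells. Of 19 residency genes, 3 were higher and 16 lower in Eomes-only cells, 6 of these lower in each library. Klf2, a transcription factor that maintains exit from tissue, was at 373.4, 366.3 and 481.2 CPM in Eomes-only cells of the depletion, anti-CTLA-4 and IgG libraries and at 0, 80.1 and 47.1 CPM in cells with Itga1. S1pr5, the sphingosine phosphate receptor that lets mature NK cells leave tissue, was at 34.3 CPM in Eomes-only cells, and the cells with Itga1 held 1 UMI of it, under the floor of 3. Irf8, a transcription factor that NK cells need for full maturation, was at 866.6 and 390.9 CPM in Eomes-only cells and cells with Itga1, and the Ly49 gene Klra4 at 881.4 and 357.1 CPM, each in that order in every library. Tbx21, which encodes T-bet and is shared by NK cells and ILC1, was at 82.4 CPM in Eomes-only cells and 96.5 CPM in cells with Itga1. The cells with neither gene lay near Eomes-only cells for Gzma (14370 CPM), Gzmb (1941 CPM), Klf2 (536.5 CPM) and Irf8 (973.3 CPM), and between the other classes for Cxcr6 (111.4 CPM) and Xcl1 (1060 CPM).

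**Figure D2:**
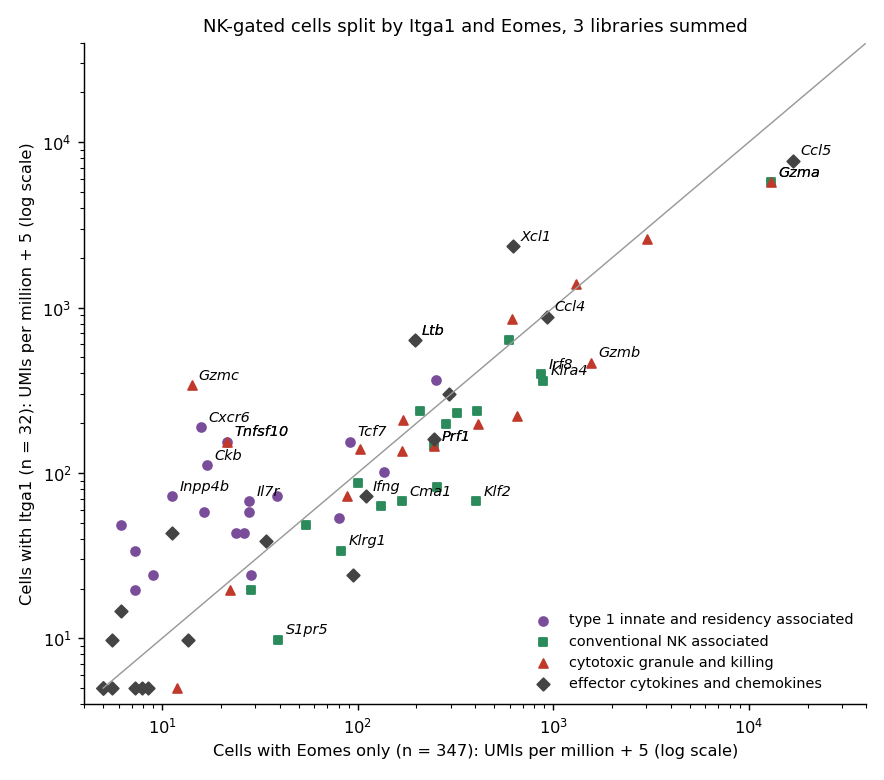
Level of each gene in cells with Itga1 (y axis, 32 cells) against Eomes-only cells (x axis, 347 cells), both as CPM plus 5 on log scales and summed over the 3 tumor libraries, with 1 point a gene coloured by list. Cxcr6, Tnfsf10, Xcl1, Ltb and Gzmc lie above the diagonal, and Gzma, Gzmb, Klf2 and S1pr5 lie below it.

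The lectin receptors of mouse NK cells lie together on chromosome 6, where 23 listed lectin receptor genes span positions 128609227 to 131247362 (mm10, GENCODE vM21) from Klrb1a to Klra2. The Ly49 receptors at the distal end bind class I molecules on target cells, and each NK cell uses several of them. Klra4 was at 766.6, 786.0 and 806.6 CPM in the depletion, anti-CTLA-4 and IgG libraries, Klra7 at 552.7, 577.9 and 533.6 CPM, and Klra9 at 377.8, 442.4 and 424.1 CPM. These levels lay within narrow ranges across libraries. Klra3 was at 140.3, 255.9 and 255.0 CPM, lower in the depletion library than in the others. Klra1 was at 140.3, 132.2 and 54.1 CPM, lower in the IgG library than in the others. Klra2, Klra5, Klra6 and Klra10 did not exceed 15.3 CPM in any library, and Klra17 had no UMI. Ly49 genes are close copies of one another, so reads can be split or lost between them, and single Ly49 levels are uncertain.

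Gated cells combined Ly49 genes to a like degree in each library. The median cell showed UMIs of 3 of the 11 Ly49 genes in every tumor library, and 2 after thinning. At least 3 Ly49 genes were seen in 50.5% of cells in the depletion library, 55.1% in the anti-CTLA-4 library and 59.8% in the IgG library, and after thinning in 17.6%, 20.9% and 24.2%. Klra8 is one of these genes and was also part of the gate. Cells with no Ly49 UMI numbered 17 (8.76%), 20 (6.85%) and 14 (10.6%).

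The CD94 and NKG2 chains were present in all 3 libraries. Klrd1, the CD94 chain that pairs with NKG2 proteins, was at 1217 CPM in the depletion library, 1153 CPM in the anti-CTLA-4 library and 1066 CPM in the IgG library. Klrk1, the activating receptor NKG2D, was at 1083, 892 and 1105 CPM in the same order, and Klrc1, the inhibitory receptor NKG2A, at 197.2, 238.2 and 256.4 CPM. Signalling adaptors that pair with these receptors were abundant. Fcer1g was at 2843, 3321 and 3329 CPM, and Tyrobp, which encodes DAP12, at 2714, 2759 and 2453 CPM.

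Checkpoint receptors that mark exhausted T cells were close to absent. Pdcd1, which encodes PD-1, had 5.55 CPM in the depletion library, no UMI in the anti-CTLA-4 library, which allows up to 1.96 CPM, and 1.39 CPM in the IgG library. Havcr2 (TIM-3) had a single UMI, in the anti-CTLA-4 library. Lag3 was at 8.33, 15.1 and 16.6 CPM and Tigit at 2.78, 4.58 and 2.77 CPM. Ctla4, the target of the antibody given, was at 5.55 and 5.24 CPM in the depletion and anti-CTLA-4 libraries and had no UMI in the IgG library, which allows up to 4.16 CPM. Cd96, an inhibitory receptor of NK and T cells, was at 34.7, 34.7 and 47.1 CPM.

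Maturation was read from Cd27, a costimulatory receptor of less mature mouse NK cells, and Klrg1, an inhibitory receptor of mature ones. Klrg1 without Cd27 was found in 11.3% of cells in the depletion library, 27.4% in the anti-CTLA-4 library and 14.4% in the IgG library, and after thinning in 6.74%, 12.0% and 6.82%. Cd27 without Klrg1 was found in 19.1%, 24.3% and 27.3% of cells, and after thinning in 8.81%, 8.22% and 6.06%. The Klrg1 level was 63.9 CPM (95% Poisson interval 46.8 to 85.2) in the depletion library, 109.3 CPM (93.4 to 127.2) in the anti-CTLA-4 library and 58.2 CPM (42.0 to 78.7) in the IgG library. The anti-CTLA-4 library was thus the highest for Klrg1 beyond counting error, although its ratio to IgG of 1.88 (1.33 to 2.70) was under 2. Among homing receptors, Ccr2, which takes cells from blood into inflamed tissue, was at 386.1, 419.5 and 335.4 CPM.

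Gzma and Gzmb were detected at high levels in every tumor library, and Prf1, which encodes perforin, at lower ones. Gzma was at 10430 CPM (10200 to 10670) in the depletion library, 14500 CPM (14310 to 14700) in the anti-CTLA-4 library and 12240 CPM (11990 to 12500) in the IgG library. Gzmb, which encodes granzyme B, was at 984.7 CPM (913.5 to 1060), 2009 CPM (1939 to 2082) and 1389 CPM (1304 to 1477). Prf1 was at 183.3, 314.1 and 243.9 CPM. All 3 genes were highest in the anti-CTLA-4 library and lowest in the depletion library. At 1000 UMIs per cell, a Gzmb UMI was found in 42.5% of cells in the depletion library, 52.7% in the anti-CTLA-4 library and 44.7% in the IgG library. Fasl, the ligand of the death receptor Fas, had the same order at 127.8, 193.1 and 151.1 CPM.

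Cytokine and chemokine genes had another order. Ccl5 was the most abundant of them, at 18800, 18330 and 10340 CPM in the depletion, anti-CTLA-4 and IgG libraries. Xcl1 was at 573.6 CPM (519.6 to 631.7), 818.1 CPM (773.4 to 864.7) and 1355 CPM (1272 to 1443), with a UMI in 35.1%, 44.2% and 59.8% of cells, and after thinning in 19.2%, 25.3% and 31.8%. Ccl5 was thus lowest and Xcl1 highest in the IgG library. Ifng, the cytokine interferon-gamma, was at 108.3, 73.9 and 191.3 CPM, in 6.70%, 19.2% and 18.9% of cells, and after thinning in 3.63%, 6.16% and 6.06%. A single IgG cell held 50.7% of the Ifng UMIs of its library, and without the cell with the most Ifng UMIs in each library the anti-CTLA-4 and IgG levels were 65.4 and 94.2 CPM. Ccl3, an inflammatory chemokine, was at 304.1, 161.0 and 363.1 CPM, and 1 cell held 63.9% of it in the depletion library. Il22, Areg and Ccl1 had no UMI in any tumor library.

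**Figure D3:**
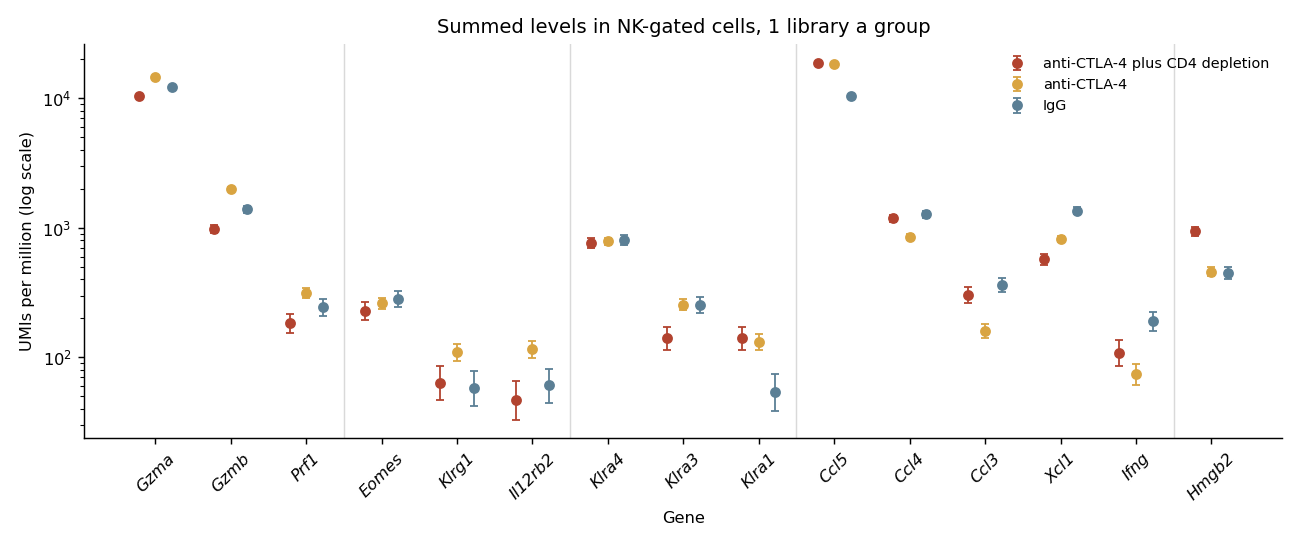
Level of 15 genes in NK-gated cells, as CPM on a log scale (y axis), in the depletion, anti-CTLA-4 and IgG libraries from left to right for each gene (x axis). Points are 1 library each and bars are 95% Poisson intervals of the count. Gzma, Gzmb and Prf1 are highest in the anti-CTLA-4 library, Xcl1 and Ifng in the IgG library, and Klra1 is lowest in the IgG library.

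RNA of other cell types in the gate was spread over cells for some marker lists and held mostly by 1 cell for others. Of 6 measured T lineage genes, Cd5, Cd40lg and Themis had no UMI in any tumor library. The B cell gene Ms4a1, the dendritic cell genes Xcr1 and Clec9a, the neutrophil gene Ly6g and the neural genes Sox2, Gfap and Olig1 also had none. The 8 glioma, neural and endothelial genes still summed to 63.9, 60.2 and 70.7 CPM in the depletion, anti-CTLA-4 and IgG libraries. No more than 9.80% of a sum was in 1 cell, and 7 of these genes had no UMI in the IgG library. The 5 B and plasma cell genes summed to 0, 18.3 and 5.54 CPM in the same order. The 6 neutrophil genes summed to 897.2 CPM in the depletion library, 2.62 CPM in the anti-CTLA-4 library and 6.93 CPM in the IgG library, and 1 cell held 75.2% of the depletion sum. The 7 dendritic genes, which include the MHC class II genes, summed to 505.5, 113.9 and 66.5 CPM, and 1 depletion cell held 91.8% of its sum, against a top cell of 23.6% in the anti-CTLA-4 library and 16.7% in the IgG library. The 10 macrophage and monocyte genes summed to 315.3, 390.1 and 199.6 CPM, and 1 anti-CTLA-4 cell held 53.4% of its sum, against a top cell of 16.7% in the depletion library and 4.86% in the IgG library. The 6 T lineage genes summed to 52.8, 39.3 and 62.4 CPM, with no more than 11.1% of a sum in 1 cell, and the 8 microglia genes to 77.8, 46.5 and 49.9 CPM, with no more than 8.33%. The macrophage gene Adgre1 had a single UMI in all 3 libraries. Cells with at least 5 UMIs of the neutrophil, the dendritic or the macrophage and monocyte list numbered 6, 6 and 3. Cells of any class that met this rule are called cells that held myeloid RNA below.

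NK-gated cells were next compared with T cells of the same tumors that carried NK receptors. These T cells passed the same NK receptor threshold but held at least 2 Cd3 UMIs, with or without Cd4 or Cd8 UMIs, and numbered 53, 69 and 41 in the depletion, anti-CTLA-4 and IgG libraries. Each class was summed by library and tested across the 3 libraries with edgeR's quasi-likelihood test and library as a block, so the p-values measure only the spread between these libraries. Cd3 and NK receptor RNA set the classes apart, so lower T cell receptor complex and T lineage genes describe that choice. Of 6098 genes tested, 371 (6.08%) were higher and 485 (7.95%) lower in NK-gated cells at a Benjamini-Hochberg adjusted p under 0.05. The T cells were deeper, with medians of 5272, 8227 and 8206 UMIs. Counts also changed when a library was left out. Without the anti-CTLA-4 library, 264 genes were higher and 313 lower of 5559 tested. Without the IgG library 303 were higher and 373 lower, and without the depletion library 383 and 519.

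Conventional NK genes were higher in NK-gated cells, with 17 of 19 tested members higher and 2 lower, and a median log2 fold change of 2.01 against 0.00336 over all genes. The lists were chosen with earlier results of these data known, and the gate was set to find NK cells, so this count is a description. Eomes was at 229.2, 261.1 and 281.3 CPM in NK-gated cells and 56.8, 32.7 and 88.8 CPM in T cells with NK receptors, with no overlap between the classes (log2 fold change 2.04 ± 0.21 SE, edgeR adjusted p = 1.11e-06). Gzma rose by a log2 fold change of 2.87 ± 0.16 and Prf1 by 2.01 ± 0.18. Irf8 stood at 722.2, 961.4 and 823.2 CPM in NK-gated cells and 91.4, 199.1 and 150.6 CPM in the T cells. Cma1, which encodes a chymase best known from mast cells, had 138.9, 184.6 and 151.1 CPM in NK-gated cells and 3.15, 1.55 and 2.69 CPM in the T cells (edgeR adjusted p = 1.07e-09). With 3 UMIs in all T cells of this class, the ratio was 73.4 (24.97 to 357.2, counting error only), and its fitted rise was the largest of all genes tested. The 2 lower members were Cx3cr1, the fractalkine receptor (log2 fold change -1.82), and Ly6c2 (-1.54).

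Outside the lists, the genes with the largest rises over T cells with NK receptors also held transcription regulators. Mef2c was at 81.9, 58.9 and 59.6 CPM in NK-gated cells and 15.8, 3.11 and 0 CPM in the T cells. Zfhx3 was at 37.5, 31.4 and 37.4 CPM in NK-gated cells and 3.15, 4.67 and 2.69 CPM in the T cells. Serpinb9b, of the family of granzyme-blocking serpins, rose by a log2 fold change of 5.21 ± 0.39, Khdc1a by 3.95 ± 0.38, Scimp, a transmembrane adaptor, by 3.17 ± 0.42 and Phactr3 by 3.20 ± 0.39. Klra4 rose by 3.37 ± 0.18. S1pr5, with 3 UMIs in the T cells, was 15.4-fold higher (5.12 to 75.9) and passed edgeR's test (adjusted p = 0.000189). Tmsb15a, Eya1 and Osbpl1a, with 2, 2 and 3 UMIs in the T cells, had ratios of 16.4 (4.37 to 137.7), 14.8 (3.94 to 124.8) and 10.5 (3.44 to 52.0). They passed edgeR's test, but lost the call with DESeq2 (adjusted p = 0.0772, 0.0897 and 0.0964).

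Genes of tissue residency and ILC1 were mostly lower than in these T cells, with 4 of 19 tested members higher, 12 lower and a median log2 fold change of -1.43. Cxcr6 was at 8.33, 74.6 and 69.3 CPM in NK-gated cells and 249.1, 595.7 and 422.3 CPM in the T cells (log2 fold change -3.27 ± 0.21 SE). Il7r, the interleukin-7 receptor chain, fell by 2.93 on the log2 scale and Itga1 by 1.64. The 4 higher members were Kit (1.67 ± 0.38), Rgs2 (1.35 ± 0.25), Tmem176a (1.74 ± 0.51) and Tmem176b (1.31 ± 0.42). Without the cells of either class that held myeloid RNA, only 2 of 17 tested members were higher, and 12 were lower. Of the same list, Tnfsf10 fell by 1.55 and Cd69, an early activation and retention receptor, fell by 0.73.

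Checkpoint receptors separated the classes widely, with none of 8 tested members higher and 5 lower. Pdcd1 was at 5.55, 0 and 1.39 CPM in NK-gated cells and 198.6, 227.1 and 164.1 CPM in T cells with NK receptors (log2 fold change -6.93 ± 0.38 SE, edgeR adjusted p = 3.9e-10). Lag3 fell by 3.96 on the log2 scale. Havcr2, with 1 UMI in NK-gated cells, was 122.6-fold lower (21.1 to 4930). Tnfrsf4, the costimulatory receptor OX40, fell by 6.0 and Bcl11b, a T lineage transcription factor, by 5.43. Adam19, Cd6 and Sytl1, with 1, 1 and 2 UMIs in NK-gated cells, were 198.4-fold (34.7 to 7925), 136.0-fold (23.5 to 5459) and 33.4-fold (8.49 to 288.8) lower, and all 3 passed the test. Themis, Cd5 and Ikzf4 had no UMI in NK-gated cells and were at least 59.5-fold, 42.4-fold and 23.8-fold lower, against a floor of 3 UMIs over the class.

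Proliferation genes were lower in NK-gated cells, with 1 of 15 tested members higher (H2afz), 8 lower and a median log2 fold change of -1.28. Without the cells of either class that held myeloid RNA, 11 members were tested. Of these, 1 was higher and 4 were lower, with a median of -0.405. These medians cover different sets of genes, so how much of the difference depended on those cells was not tested. Ube2c fell by 4.39 and Mki67 by 2.83 on the log2 scale, and Ccnb2, with 2 UMIs in NK-gated cells, was 36.8-fold lower (9.41 to 316.4). Mki67 had 18.1, 6.54 and 5.54 CPM in NK-gated cells, in 3, 9 and 4 cells of the 3 libraries. In the depletion library 1 cell held 76.9% of the Mki67 UMIs.

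Receptors and their wiring went both ways in the same comparison. Of the Ly49 genes, 4 of 7 tested members were higher and 3 lower. The lower ones were Klra1 (-0.94 ± 0.23), Klra5 (-3.12 ± 0.34) and Klra6 (-2.34 ± 0.42), which T cells with NK receptors carried at higher levels. Klra9 rose by 1.96 ± 0.20. Of the NKG2 and NKR-P1 lectin receptors, 7 of 10 tested members were higher and none lower, with Klrb1b at 2.93 ± 0.19 and Klrk1 at 1.02 ± 0.10. Klrd1 (-0.02 ± 0.09) and Klrc1 (-0.16 ± 0.12) did not pass the test. Of 15 signalling adaptors, 8 were higher and 3 lower. Tyrobp (2.08 ± 0.10), Fcer1g (1.71 ± 0.09) and the kinase gene Syk (2.51 ± 0.37) rose, and Lat (-2.63 ± 0.17), Zap70 (-1.12 ± 0.18) and Lck (-0.78 ± 0.12), which carry T cell receptor signals, fell. In the list of other activating receptors, 1 of 14 was higher (Fcgr3, the Fc receptor CD16) and 7 were lower.

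The remaining lists gave mixed counts over T cells with NK receptors. Of 15 killing genes, 6 were higher and 3 (Gzmk, Cst7 and Tnfsf10) lower. Of 9 cytokine and chemokine genes, Ccl3 (2.35 ± 0.24), Ccl4 (1.78 ± 0.20), Ccl5 (0.81 ± 0.07) and Tgfb1 (0.96 ± 0.15) were higher and Ltb was lower, while Ifng (0.38 ± 0.20) and Xcl1 (-0.27 ± 0.19) did not pass the test. Of 21 transcription factors, 7 were higher and 4 lower, with Ikzf2, which encodes Helios, at -3.50 ± 0.17 and Tox at -1.64 ± 0.23. Tbx21 did not pass the test (0.56 ± 0.23, edgeR adjusted p = 0.12). Of 16 homing receptors, 9 were higher and 3 lower, and of 23 cytokine receptor and signalling genes 5 were higher and 6 lower. The type I interferon list had 1 of 19 higher (Ifi204) and 7 lower, and the interferon-gamma list 2 of 21 higher and 6 lower. Immediate early genes, which dissociation also induces, had 7 of 14 higher and 1 lower, with Fos at 2.86 ± 0.44, and in the IgG library 1 NK-gated cell held 74.4% of the Fos UMIs.

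The second comparison set NK-gated cells against CD8 T cells with no UMI of the 4 NK gate genes, numbering 614, 80 and 48 cells in the depletion, anti-CTLA-4 and IgG libraries. Of 6263 genes tested, 573 (9.15%) were higher and 554 (8.85%) lower in NK-gated cells at an edgeR adjusted p under 0.05. Killing genes were higher, with 10 of 15 tested members higher and 1 (Gzmk) lower, and a median log2 fold change of 1.002 against 0.00816 over all genes. Prf1 was at 183.3, 314.1 and 243.9 CPM in NK-gated cells and 9.46, 24.01 and 15.4 CPM in the CD8 T cells (log2 fold change 3.92 ± 0.21 SE). Gzma rose by 4.89 ± 0.41. Eomes rose by 3.04 ± 0.24, and Tbx21, which did not pass the test against T cells with NK receptors, rose by 1.52 ± 0.22. The difference between these 2 comparisons was not itself tested, and they share the NK-gated cells.

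Ly49 and lectin receptor genes were higher than in CD8 T cells, and signalling adaptors went both ways, with 8 of 16 higher and 5 lower. All 5 tested Ly49 genes and 9 of 10 lectin receptors were higher and none lower. The CD8 T cells had been chosen to hold no UMI of 4 NK receptors, so receptor genes are close to that choice. Klrb1b rose by a log2 fold change of 7.05 ± 0.32 and Klrb1a by 7.01 ± 0.35, and Klra9, with 3 UMIs in the CD8 T cells, was 538.7-fold higher (183.9 to 2616). Klra4 was at 766.6, 786.0 and 806.6 CPM in NK-gated cells and 0, 0 and 3.09 CPM in the CD8 T cells, which is a single UMI. Tyrobp was at 2714, 2759 and 2453 CPM in NK-gated cells and 100.3, 29.6 and 49.4 CPM in the CD8 T cells, and Fcer1g rose by 4.98 ± 0.18. Tnfsf12, which encodes the cytokine TWEAK, had 2 UMIs in the CD8 T cells and was 150.8-fold higher (41.3 to 1252), and Serpinb9b had a single UMI there. Cma1, Khdc1a, Phactr3, Adamts14, Tmsb15a and Eya1 had no UMI in the CD8 T cells. They were at least 210.9-fold, 117.3-fold, 72.6-fold, 55.0-fold, 31.4-fold and 28.4-fold higher in NK-gated cells in that order, against a floor of 3 UMIs over the class. Tmsb15a lost the call with DESeq2 (adjusted p = 0.0655).

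Interferon-stimulated genes were mostly lower than in CD8 T cells. Of 22 tested type I interferon genes, 16 were lower and 1 (Ifi204) higher, with a median log2 fold change of -1.41. Ifi27l2a was at 186.1, 47.1 and 56.8 CPM in NK-gated cells and 3505, 1875 and 1837 CPM in the CD8 T cells (log2 fold change -4.96 ± 0.22 SE). Isg15 was at 62.5, 47.8 and 90.1 CPM in NK-gated cells and 299.5, 317.7 and 228.4 CPM in the CD8 T cells (-2.31 ± 0.19). Of 23 interferon-gamma genes, 14 were lower and none higher, among them the GTPase genes Iigp1 (-3.98 ± 0.34) and Igtp (-2.04 ± 0.23). The 10 macrophage and monocyte genes summed to 315.3, 390.1 and 199.6 CPM in NK-gated cells and 807.4, 330.6 and 493.9 CPM in the CD8 T cells, and 2 of the 4 tested were lower in NK-gated cells. Without the cells of either class that held myeloid RNA, 18 of 22 type I genes and 13 of 22 interferon-gamma genes were lower, and Iigp1 had too few UMIs to be tested. Of the receptor genes, Ifnar1 (0.48 ± 0.20) and Ifnar2 (0.06 ± 0.21) did not pass the test, and Ifngr1 was higher (0.92 ± 0.15).

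Genes of residency and division were mostly lower than in CD8 T cells as well, and checkpoint genes went both ways. The residency list had 2 of 20 tested members higher (Kit and Rgs2) and 13 lower, with Itgae, the integrin CD103, at -4.98 ± 0.40 and Cxcr6 at -2.82 ± 0.29. Itga1 did not pass the test (-0.40 ± 0.44). Of 9 checkpoint genes, 4 were higher and 5 lower, and the lower ones included Pdcd1 (-6.03 ± 0.40) and Ctla4 (-4.03 ± 0.39). Without the cells of either class that held myeloid RNA, 3 of 9 were higher and 5 lower. Of 14 proliferation genes, 1 (H2afz) was higher and 10 were lower, with a median log2 fold change of -0.976. Without the cells of either class that held myeloid RNA, 1 of 11 was higher and 5 were lower, with a median of -0.348. The conventional NK list had 15 of 19 higher and 1 (Ly6c2) lower, a count close to the choice of CD8 T cells without NK gate UMIs. Dapl1, Cd5, Themis, Sit1, Foxp3 and Plcg1 had no UMI in NK-gated cells, and were at least 85.4-fold, 110.7-fold, 81.2-fold, 52.5-fold, 47.1-fold and 41.1-fold lower in that order. Foxp3 marks regulatory T cells, so the CD8 T cell class held some cells or RNA of that kind, at 53.0, 31.4 and 24.7 CPM. Bcl11b fell by 6.33 on the log2 scale. With 1 UMI each in NK-gated cells, Cd6 was 284.8-fold lower (50.8 to 11280), Adam19 228.9-fold (40.8 to 9072), Izumo1r 197.9-fold (35.2 to 7846), Fam169b 171.5-fold (30.5 to 6804) and Slamf1 135.8-fold (24.1 to 5394).

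The remaining lists over CD8 T cells were as follows. Of 9 cytokine and chemokine genes, 6 were higher, among them Ccl3 (3.04 ± 0.26), Xcl1 (1.57 ± 0.36) and Ifng (1.15 ± 0.31), and Ltb was lower. Of 22 transcription factors, 9 were higher and 6 lower, with Irf8 at 3.32 ± 0.24, Zeb2 at 2.38 ± 0.23 and Id3 at -4.44 ± 0.45. Of 17 homing receptors, 10 were higher and 4 lower, with the lymph node receptor Ccr7 at -3.86 ± 0.37. Of 23 cytokine receptor and signalling genes, 7 were higher and 6 lower, with Il12rb2, a chain of the interleukin-12 receptor, at 4.0 ± 0.33 and Il2rb, shared by the interleukin-2 and interleukin-15 receptors, at 1.495 ± 0.15. Of 16 adaptors, 8 were higher and 5 lower. Of 14 other activating receptors 3 were higher and 7 lower, and of 14 immediate early genes 3 were higher and none lower.

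**Figure D4:**
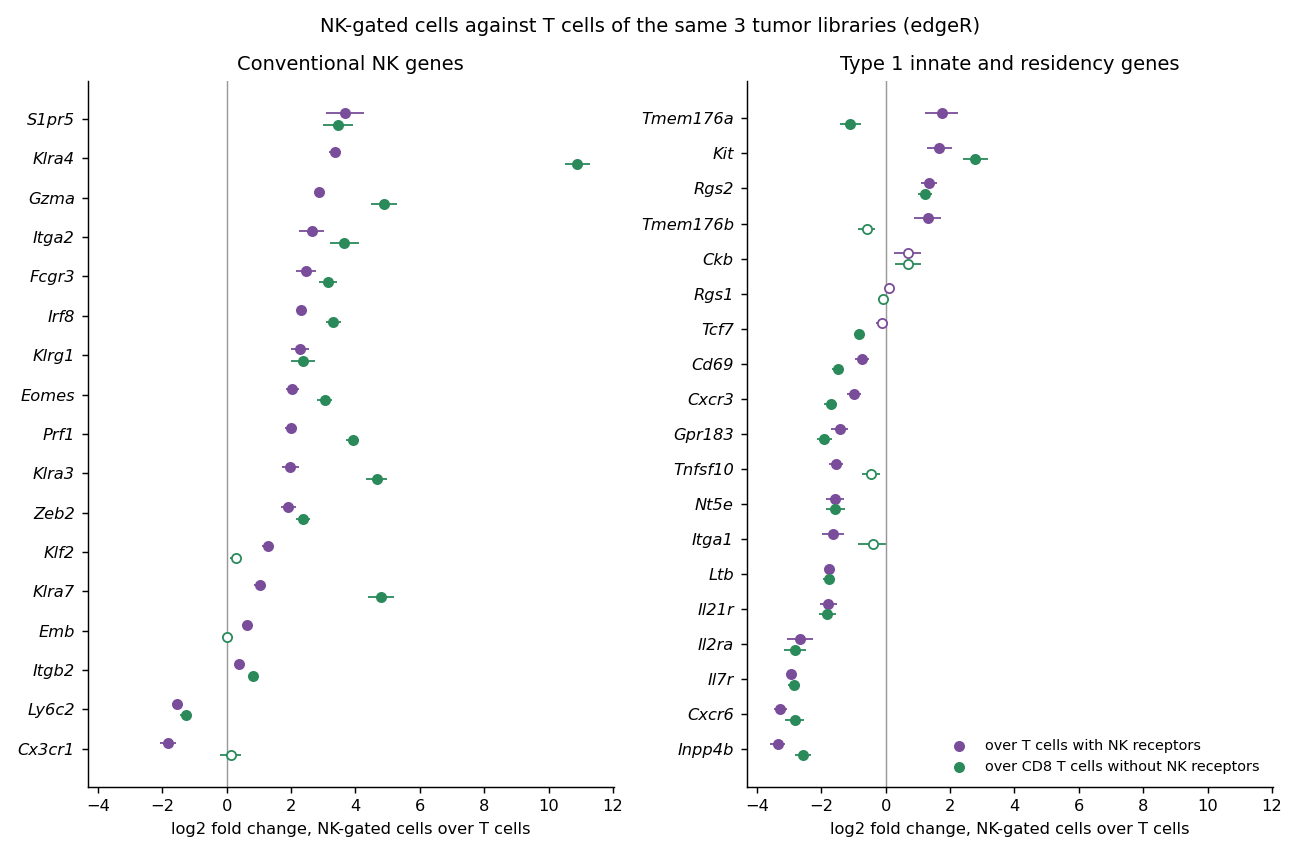
Log2 fold change of NK-gated cells over T cells with NK receptors (purple) and over CD8 T cells without NK receptors (green), with bars for the standard error, for conventional NK genes at left and type 1 innate and residency genes at right (3 libraries, edgeR). Filled points passed an adjusted p of 0.05 and open points did not, and the genes left out include those with no UMI in 1 class (Cma1) or not tested in both comparisons. Most conventional genes lie right of 0 and Cxcr6, Il7r and Inpp4b lie left of 0 in both comparisons.

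Between libraries, differences within NK-gated cells were few. The size rule asked for 50 or more UMIs summed over the pair, a CPM ratio of 2 or more, and detection in 10% or more of the cells on the higher side. These are sizes and not tests, since each group is 1 library. The 3 comparisons below share libraries with one another, so they are not independent. The median log2 ratio over the genes tested was between -0.0315 and 0.000915.

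Depletion over anti-CTLA-4 gave 15 higher genes of 4871 tested (0.308%) and 54 lower genes (1.11%). Pim2, a kinase gene induced by cytokine receptors, was at 23.6 CPM in the depletion library and 115.2 CPM in the anti-CTLA-4 library, with a UMI in 8.25% and 32.5% of cells. It was 4.88-fold lower in the depletion library (interval 2.96 to 8.56, counting error only). Gzmb was 2.04-fold lower (1.88 to 2.22), the only one of 14 killing genes past the rule. Il12rb2 was 2.45-fold lower (1.69 to 3.65) at 47.2 against 115.8 CPM, and Tnfrsf9, the activation receptor 4-1BB, was 2.49-fold lower at 55.5 against 138.1 CPM. S100a4 was 2.70-fold lower, Gadd45g, a stress response gene, 3.39-fold, Stx11, a syntaxin of granule release, 3.24-fold, Bcl3 2.83-fold and Rnf157 2.57-fold. Ahr, the aryl hydrocarbon receptor, and Gbp2 were the other list members counted as lower, at 2.40-fold and 2.46-fold, and 1 anti-CTLA-4 cell held 43.6% of the Gbp2 UMIs. Without the cell with the most Gbp2 UMIs in each library, Gbp2 had a ratio of 0.681 and missed the rule. None of 19 conventional NK genes passed the rule, and their median log2 ratio was -0.398, with 16 of 19 below an even ratio. Several other lists leaned the same way, with 18 of 21 interferon-gamma, 15 of 18 cytokine receptor and 13 of 16 homing genes below it. Fewer were below among cytokine and chemokine genes (3 of 9), proliferation genes (3 of 8) and checkpoint genes (1 of 5). The median over all genes tested was -0.0302, and the share of all genes below an even ratio was not counted.

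Several of the genes higher in the depletion library had most of their UMIs in 1 cell. S100a9, a neutrophil protein gene, was at 302.8 CPM in the depletion library and 1.31 CPM in the anti-CTLA-4 library, and 1 cell held 72.0% of the UMIs. Without the cell with the most S100a9 UMIs in each library it was at 84.7 and 0.6545 CPM, a ratio of 129.4. It then missed the rule only on the share of cells, which was 10.3% of depletion cells before that cell was left out. S100a9 also had a UMI in 8.45%, 0.538% and 5.48% of B cells in the depletion, anti-CTLA-4 and IgG libraries. In T cells with NK receptors the shares were 7.55%, 2.90% and 2.44%. H2-Ab1, an MHC class II gene, was at 177.8 and 30.1 CPM, and 1 depletion cell held 80.5%. Lyz2, a macrophage gene counted as 5.29-fold lower, had 80.6% of its anti-CTLA-4 UMIs in 1 cell. Without the cells that held myeloid RNA, the log2 ratios were 2.36 for S100a9, 0.436 for H2-Ab1 and -0.0354 for Lyz2. Hmgb2, a chromatin protein gene that rises in dividing cells, was at 937.4 and 459.4 CPM, with a UMI in 75.8% and 78.4% of cells, a ratio of 2.04 (1.83 to 2.27). Without the cell with the most Hmgb2 UMIs in each library the ratio was 1.76. Txnip, a regulator of glucose uptake, had a ratio of 2.02 (1.77 to 2.32) at 580.5 and 286.7 CPM, and 1.96 without such cells. Tmem5, Map3k4, Cfap20 and Msrb1 had ratios of 2.97, 2.92, 2.49 and 2.19, at levels of at most 83.3 CPM in the depletion library.

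Anti-CTLA-4 over IgG gave 41 higher genes of 4901 tested (0.837%) and 20 lower genes (0.408%). The Ly49 gene Klra1 was at 132.2 CPM in the anti-CTLA-4 library and 54.1 CPM in the IgG library, a ratio of 2.45 (1.73 to 3.54), and was the one of 5 tested Ly49 genes past the rule. S100a4 had a ratio of 3.06 (2.33 to 4.09), and Cenpa, a histone of centromeres, a ratio of 3.38 (2.08 to 5.79) at 89.0 and 26.3 CPM. Lactb2, Fam69a and Ezh2, a histone methyltransferase, had ratios of 3.85, 3.17 and 2.53. Tox (2.23) and Gbp5 (2.14) were the other list members counted as higher, beside Lyz2 and Cenpa. Lyz2 (5.30) and Ifitm3 (4.14) had 80.6% and 67.1% of their anti-CTLA-4 UMIs in 1 cell. Ccl5 missed the rule with a ratio of 1.77 (1.73 to 1.82), at 18330 CPM in the anti-CTLA-4 library and 10340 CPM in the IgG library, as did Gzmb with 1.45 (1.35 to 1.56).

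Of the genes lower in the anti-CTLA-4 library, Ccl3 was 2.26-fold lower (1.89 to 2.69) at 161.0 against 363.1 CPM, and stayed past the rule without the cell with the most Ccl3 UMIs in each library. Ifng was 2.59-fold lower (2.002 to 3.35), and past the rule only with the single IgG cell named above. These were the 2 of 9 cytokine genes counted. Ckb, brain-type creatine kinase and a member of the residency list, was 3.11-fold lower at 19.6 against 61.0 CPM. Tmx1 (2.53-fold), Pole3 (2.52-fold), Rara (2.30-fold), Camk2g (2.17-fold) and Phc3 (2.12-fold) followed. Usp18, an interferon-induced protease, was 2.03-fold lower, and Zfp36, an immediate early gene, 2.01-fold. Without the cell with the most Zfp36 UMIs in each library it was at 35.3 against 61.0 CPM, a ratio of 0.58, and missed the rule. The residency list had a median log2 ratio of -0.505, with 10 of 15 tested members below an even ratio. Also below it were 11 of 16 type I interferon, 10 of 14 immediate early and 7 of 9 cytokine and chemokine genes. Fewer were below among conventional NK genes (5 of 19) and homing genes (4 of 16), and the share over all genes was not counted.

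Depletion over IgG gave 26 higher genes of 3565 tested (0.729%) and 42 lower genes (1.18%). Pim2 was again low in the depletion library, at 23.6 CPM against 131.7 CPM in the IgG library, 5.58-fold lower. Xcl1 was 2.36-fold lower (2.10 to 2.66), the one cytokine gene past the rule. Cd69 was 2.19-fold lower (1.53 to 3.18) at 63.9 against 140.0 CPM, and Ckb 3.14-fold lower, the 2 of 12 residency genes counted. Cd160 (2.18-fold), Lilrb4a (2.22-fold), Igtp (2.36-fold), Usp18 (2.42-fold), Ly6a (2.53-fold), Jun (2.06-fold) and the cytokine-induced gene Cish (2.79-fold) were the other list members counted as lower. Of the depletion library's Ly6a UMIs, 89.3% were in 1 cell, and without the top cells Ly6a was at 4.17 against 76.2 CPM, a ratio of 0.0547. Ckb missed the rule without such cells, at 12.5 against 48.5 CPM. F2r, the thrombin receptor, was 3.43-fold lower, Lars2 3.30-fold, Gadd45g 3.13-fold, Abcg2, a drug transporter, 3.06-fold, Furin 2.89-fold and Exosc2 2.88-fold. Cxcr6 had 8.33 CPM in the depletion library against 69.3 CPM in the IgG library, but was in 9.09% of IgG cells and so missed the rule on cells.

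Of the genes higher in the depletion library than in IgG, Klra1 had a ratio of 2.60 (1.78 to 3.86), Cenpa 2.90 (1.69 to 5.18), Stmn1, a microtubule regulator of dividing cells, 2.82, and Hmgb2 2.09 (1.83 to 2.40). Cenpa, Stmn1 and Hmgb2 were the 3 of 7 tested proliferation genes past the rule. Without the cell with the most UMIs of each gene, Stmn1 kept a ratio of 2.89 and Hmgb2 had 1.86, while in cells thinned to 1000 UMIs the log2 ratio of Stmn1 was -0.169. Top2a was at 36.1, 16.4 and 8.32 CPM and Mki67 at 18.1, 6.54 and 5.54 CPM in the depletion, anti-CTLA-4 and IgG libraries. The shares of cells with a UMI had another order, at 6.70%, 6.85% and 3.79% for Top2a and 1.55%, 3.08% and 3.03% for Mki67. As given above, 1 cell held most of the depletion library's Mki67 UMIs. Irf7 (2.40), Apoe (2.03), Desi1 (2.85) and Inpp1 (2.56) were also counted. S100a9 had a ratio of 218.5 (38.8 to 8668) and a single IgG UMI, and its log2 ratio was 2.34 without the cells that held myeloid RNA. Ifitm3 (5.72) and H2-Ab1 (4.28) had 74.2% and 80.5% of their depletion UMIs in 1 cell, and without the cells that held myeloid RNA their log2 ratios were 0.608 and -0.190. The neutrophil, dendritic and macrophage sums given above moved with these genes, and the part of such RNA in the other differences between libraries was tested only by leaving those cells out.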

How the data were processed

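Barcodes, genes and counts were used as the deposited 10x matrices give them. The values are whole-number UMI counts per gene and barcode, made by the authors with Cell Ranger 3.1.0, per the file headers, on mm10, per the submitters' processing notes. The labels name the 3′ kit v2, and introns and multi-mapping rules are not given in the sources used here. The matrix lists 27998 gene rows, of which 27645 matched GENCODE vM21 by gene ID.

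The members and the 25 gene lists were chosen with earlier results of these data known. Of 354 listed genes, 337 are in the matrix. Gates were applied to raw counts. CD8 T cells held at least 2 Cd3 UMIs, a Cd8a or Cd8b1 UMI, no Cd4 UMI and at most 1 C1q UMI. B cells held at least 3 UMIs of Cd79a, Cd79b and Ms4a1 and none of Cd3 or the NK genes. No doublet was removed beyond the gate, and Scrublet (scanpy 1.11.5) at its automatic threshold marked 2, 8, 10 and 12 barcodes of the depletion, anti-CTLA-4, IgG and healthy brain libraries and no NK-gated cell. It marked under 0.5% in some libraries and is not taken as evidence that doublets are absent, so the 5% of barcodes with the highest scores were left out as an alternative. Library totals were 21471565, 13428840, 9952379 and 7950206 UMIs in the same order.

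Levels are CPM over the cells of a class. Shares have exact Clopper-Pearson intervals, levels 95% Poisson intervals, and ratios of 2 libraries exact conditional-binomial 95% intervals, all for counting error only. Median and list log2 ratios used CPM plus 5. Class contrasts were fitted with edgeR 4.0.16 (R 4.3.3; filterByExpr, TMM, glmQLFit and glmQLFTest with library as a block, Benjamini-Hochberg over all genes tested), with DESeq2 1.42.0 as an alternative. The 13 gate genes and mitochondrial genes were left out. The edgeR step and the ratio step were tested on simulated data.

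The genes named were, for each class contrast, the 12 genes a direction with the largest log2 fold change at an adjusted p under 0.05 and the same sign in all 3 libraries, for each pair of libraries the 8 largest a direction past the size rule, and list members beside their list's count. Ribosomal, mitochondrial, hemoglobin, antigen receptor and unnamed model genes were left out. Eomes-only over Itga1-only cells and IgG over healthy brain were planned but held too few cells. Leaving out cells with myeloid RNA, or the cell with the most UMIs of a gene, was chosen after seeing the data. Some listed genes are not reported here.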

Additional observations from a re-analysis of the deposited data

How the results depend on the processing

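Of the alternative fits in which a gene named in the class contrasts could be tested, 572 kept their call and 4 lost it, all with DESeq2. Fits in which a named gene was not tested are not in these counts. Over T cells with NK receptors, DESeq2 gave 121 higher and 218 lower genes and cells thinned to 1000 UMIs gave 96 and 130, and over CD8 T cells without NK receptors 264 and 277, and 185 and 208. Thinning left 1338 and 2288 genes to test. Leaving out 1 library each gave 264 to 383 higher and 313 to 519 lower genes over T cells with NK receptors, with the lowest count of lower genes without the anti-CTLA-4 library, and 438 to 583 and 417 to 552 over CD8 T cells. Without the replicate block, that is, without pairing the classes by library, the counts were 342 and 423, and 554 and 516. Without a filter on low counts, 528 and 546, and 713 and 793 genes were called.

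Between libraries, in the order depletion over anti-CTLA-4, anti-CTLA-4 over IgG and depletion over IgG, thinned cells gave 6, 7 and 5 higher and 11, 7 and 8 lower genes, with 1, 2 and 1 higher and 2, 0 and 2 lower of the original genes among them. For the named genes, 290 alternative values stayed past the size rule, 89 did not and 5 turned, with 44 of the 89 in thinned cells. A ratio of 1.5 gave 134, 239 and 162 higher and 321, 233 and 258 lower genes. A floor of 20 UMIs with no minimum share of cells gave 133, 206 and 161 higher and 288, 144 and 214 lower genes. Leaving out the cell with the most UMIs of each gene gave 6 higher genes for the first comparison and 63 higher and 13 lower for the second, and 5, 32 and 12 of the original genes were still among these. With at least 5 gate UMIs, 17 genes were higher for depletion over IgG, and the gate held 4.0% of kept barcodes in the depletion library. Log2 ratios turned for Lyz2 in anti-CTLA-4 over IgG (-0.0185) without cells that held myeloid RNA. In depletion over IgG they turned for H2-Ab1 without such cells (-0.190), without the top cell (-0.141) and with at least 5 gate UMIs (-0.260), and for Stmn1 in thinned cells (-0.169). The cause was not tested beyond those settings.

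At 1000 UMIs the shares with Eomes were 21.2%, 22.6% and 21.97%, with Itga1 0.518%, 1.71% and 0.758%, with both 0%, 0.685% and 0%, and with neither 78.2%, 76.4% and 77.3% in the depletion, anti-CTLA-4 and IgG libraries. Counts of 32 cells with Itga1 limit what can be said of the split. Eomes-only over Itga1-only cells, planned as a test, was not run, and no alternative of it has a value.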
